A study of Mus musculus with 282 samples.

Results

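The 8 genes of androgen receptor signalling described here were measured in single basal cells of the mouse prostate: the chaperone Hsp90ab1, the cochaperone Fkbp4, the coactivators Ncoa1, Ncoa2, Ncoa3 and Ncoa4, the corepressor Ncor1 and the enzyme Srd5a1. They were chosen by name as known partners of the receptor or of its ligand, with earlier results of these data known. Each had 1 row among the 48440 gene rows of both deposited tables. All 8 passed the filter on low counts, which left 14713 genes in the test. The cells came from prostates of male POET3 mice, a transgenic line that expresses ovalbumin in the prostate and serves as a model of prostatitis. Prostates were inflamed or naive, and both groups carry the transgene. The protocol names neither the age of the mice nor what induced the inflammation, and the labels tie no cell to an animal. The tissue was digested and cells were sorted with a viability dye and antibodies to Sca-1, CD49f, CD31 and CD45, through gates that the protocol does not describe. A Fluidigm C1 chip isolated single cells, whose cDNA was read as 50-base single reads without molecular identifiers.

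The androgen receptor is a nuclear receptor that waits for its hormone in a complex of heat shock protein 90 and cochaperones. Testosterone is turned into the stronger ligand dihydrotestosterone by 5-alpha reductases. Bound receptor recruits coactivators that open chromatin and help transcription start, while corepressors bring histone deacetylases to the same genes. In the prostate the receptor is best known for its role in luminal secretory cells and in the growth of the gland.

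After shallow cells were left out, 80 inflamed cells of batch 2 and 76 of batch 3 stood against 53 naive cells of batch 2 and 59 of batch 3. The cells of a condition within a batch were added up, giving 4 sums with 79225330 and 78459122 reads in the inflamed sums and 52061533 and 50105953 reads in the naive sums. The median number of detected genes per cell was 4683 and 4109 in inflamed batches 2 and 3, and 4739 and 3432 in naive batches 2 and 3. All 10 basal markers, among them Krt5, Krt14 and Trp63, had reads in most cells of each group. Of 12 leukocyte markers, 1 or 2 had any read and Ptprc was at 0 in every sum, and the 6 endothelial markers summed to at most 2.17 CPM (counts scaled to a common library total). Of 12 luminal markers, 5 to 7 were read in 50% or more of the cells of a group. The 10 stromal markers summed to 3362 and 4297 CPM in the inflamed sums and to 4343 and 4140 CPM in the naive sums, of which Dcn, read in every cell, gave 3360 and 4262 CPM in the inflamed sums and 4263 and 4140 CPM in the naive sums. No other stromal marker exceeded 39.2 CPM, and Myh11, Des and Pdgfrb were at 0 in all 4. The summed level of the basal markers was 13790 and 13468 CPM in the inflamed sums and 8933 and 9534 CPM in the naive sums. Most of this difference was Krt17, at 6829 and 5633 CPM in the inflamed sums and 1808 and 3509 CPM in the naive sums. Krt5 (138.6 and 164.7 CPM in the inflamed sums, 367 and 188.2 CPM in the naive sums) and Trp63 (82.6 and 285 CPM in the inflamed sums, 291 and 326 CPM in the naive sums) were lower in inflamed cells in both batches. Krt15, Itga6 and Col17a1 were, like Krt17, higher in inflamed cells in both batches. Krt14, Itgb4, Dst and Lgals7 went opposite ways in the batches. The part of these differences in the values below was not tested.

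Some of these genes have processed pseudogenes, which are copies of a spliced transcript inserted elsewhere in the genome. A 50-base read can fit the gene and the copy alike, so the sequences come before the values. The first pair shows why the level of Ncoa4 is uncertain. Ncoa4 (chromosome 14, 32159865 to 32179855, plus strand, GRCm38) and the processed pseudogene Gm6768 (chromosome 12, 119260978 to 119262855, plus strand) were 99.6% identical over 1883 aligned bases. Below are 120 bases of the Ncoa4 coding sequence and the aligned bases of Gm6768, with the base that differs in capitals.
Ncoa4: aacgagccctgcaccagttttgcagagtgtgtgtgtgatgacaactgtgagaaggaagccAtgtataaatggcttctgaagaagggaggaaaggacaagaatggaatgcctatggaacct
Gm6768: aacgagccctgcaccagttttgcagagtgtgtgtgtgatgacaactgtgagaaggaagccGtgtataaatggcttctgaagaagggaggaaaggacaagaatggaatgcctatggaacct
Of the 1826 windows of 50 bases in the Ncoa4 coding sequence, 1726 (94.5%) also occurred in Gm6768, and most of the transcript's other windows did not, since 43.1% of its 4016 windows were shared in all.

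The second pair shows a copy that few windows of the gene match exactly, 42 of 2471 windows of 50 bases. How often reads with mismatches were placed at the copy was not tested. Hsp90ab1 (chromosome 17, 45567775 to 45573271, minus strand) and the processed pseudogene Gm6368 (chromosome X, 141980175 to 141982321, plus strand) were 90.997% identical over 2177 bases. The 120 bases shown, again from the coding sequence, hold 11 differences in capitals.
Hsp90ab1: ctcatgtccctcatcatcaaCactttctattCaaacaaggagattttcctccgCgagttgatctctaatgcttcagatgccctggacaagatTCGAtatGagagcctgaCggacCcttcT
Gm6368: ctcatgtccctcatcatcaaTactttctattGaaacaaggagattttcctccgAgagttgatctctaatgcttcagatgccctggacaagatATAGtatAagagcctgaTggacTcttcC
Here 110 of 2123 coding windows (5.18%) occurred in a copy. For Srd5a1, 233 of 716 coding windows (32.5%) lay in Gm17108, a gene annotated on the same strand across its exons. In Ncor1, 92 of 7313 coding windows (1.26%) occurred in Gm6743, and Ncoa1, Ncoa2, Ncoa3 and Fkbp4 shared no coding window with another gene. Short exon stretches of Ncoa1, Ncoa3 and Ncor1 are also annotated to genes on the opposite strand, and no label says that counting used strand.

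The promoter of Fkbp4 is shown because it was the only one among the promoters found for the 8 genes with the core letters of a heat shock element. The RefSeq promoter table for GRCm38.p6 held promoters of 5 of the 8 genes (Fkbp4, Ncor1, Ncoa1, Srd5a1 and Ncoa4). The Fkbp4 window covers 250 bases before to 50 after the start (chr6:128438607-128438906, minus strand), and capitals mark the match to GAANNTTC, which reads the same on both strands.
Fkbp4 promoter: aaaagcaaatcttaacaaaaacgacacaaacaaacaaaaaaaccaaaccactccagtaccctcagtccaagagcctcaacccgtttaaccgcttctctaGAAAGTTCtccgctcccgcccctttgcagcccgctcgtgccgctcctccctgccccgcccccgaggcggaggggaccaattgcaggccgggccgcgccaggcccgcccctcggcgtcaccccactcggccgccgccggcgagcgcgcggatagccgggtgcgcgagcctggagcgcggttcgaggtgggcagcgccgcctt
The match began at position -151 from the start. The same letters occurred in 2582 of 32851 promoters (7.86%). In a list of receptor chaperones 15 genes had a promoter, and 4 genes held the letters in one (Dnaja1, Fkbp4, Hsph1 and Stub1). A gene counts here if any of its promoters matched, so such counts do not compare directly with a share of single promoters. The letters AGAACA, an arm of the androgen response element searched on both strands, occurred in 18.97% of all promoters. They also occurred in a promoter of Ncoa1, of Ncoa4 and of Ncor1. Ncoa4 and Ncor1 have more than 1 promoter, and not every Ncor1 promoter held the letters, so the same limit holds here. The full element, an inverted repeat of these letters with a 3-base spacer, occurred in 0.0487% of all promoters and in none of the promoters found for these genes.

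No member passed the test between inflamed and naive cells. By edgeR's quasi-likelihood test 0 of 14713 genes passed an adjusted p of 0.05 (0%), so no single gene of the series did. At an unadjusted p under 0.05, 0 of the 8 genes were called, where 742 of all genes were called higher in inflamed cells (5.04%) and 475 lower (3.23%). DESeq2 also called none of the 8, where it called 7.13% of 13001 genes higher and 4.11% lower. By direction alone, 6 of the 8 were lower in inflamed cells in batch 2 (48.9% of all genes) and 7 in batch 3 (48.6%). Fkbp4, Hsp90ab1, Ncoa3, Ncor1 and Srd5a1 were lower in both batches, 5 of 8 where 28.3% of all genes were, although Fkbp4 and Ncoa3 turned slightly higher in batch 3 with upper-quartile scaling. By the mean of log2(CPM + 1) over cells, 2 of the 8 (Hsp90ab1 and Ncor1) were lower in batch 3. By that measure Fkbp4 (3.52 in inflamed and 2.43 in naive cells), Ncoa3 (4.63 in inflamed and 4.56 in naive cells) and Srd5a1 (1.03 in inflamed and 0.69 in naive cells) were higher there. None was higher in both batches (30.9% of all genes), and Ncoa1, Ncoa2 and Ncoa4 went opposite ways in the batches (40.8% of all genes). Both inflamed sums lay below both naive sums for Fkbp4, Hsp90ab1 and Ncor1 (21.3% of all genes), and above them for none (24.3%). For Fkbp4 this rests on 108.3 CPM in inflamed and 109.7 CPM in naive batch 3, an order that upper-quartile scaling reversed. For Ncor1 the margin in batch 2 was 1.02-fold. The median log2 fold change, inflamed over naive, was -0.35 over the 8 genes and 0.10 over all genes tested. Members and gene lists were chosen with earlier results of these data known, so counts of their directions are a description and not a test.

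**Figure D1:**
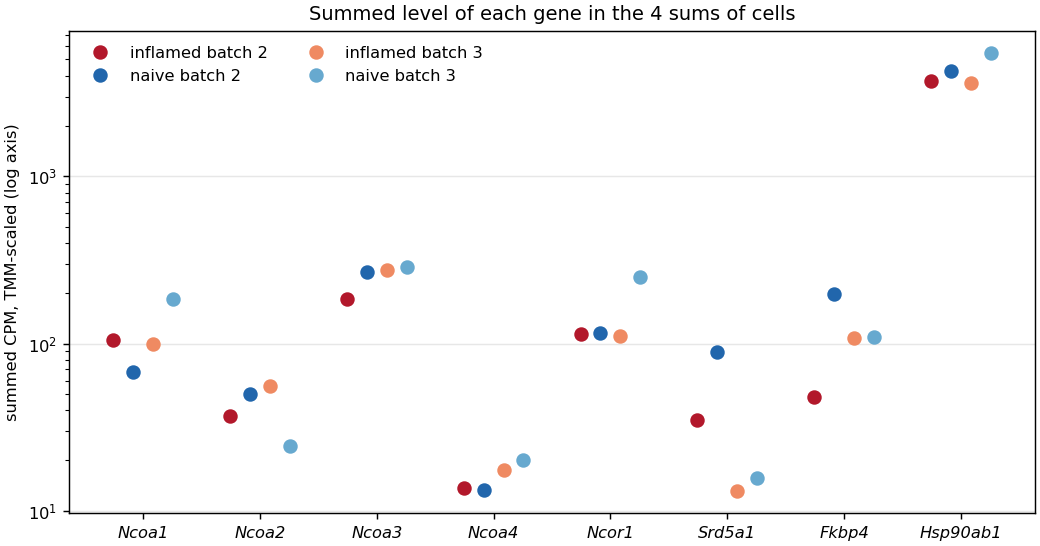
Summed level of the 8 genes in CPM on a log axis, with 1 point per sum of cells (inflamed left of naive within each batch). Hsp90ab1 lies between 3616 and 5457 CPM in all 4 sums, and the 2 batches place the conditions in different orders for Ncoa1, Ncoa2 and Ncoa4.

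Hsp90ab1 encodes the constitutive form of heat shock protein 90, which holds the unliganded receptor in a hormone-binding shape. Its summed level was 3705 and 3616 CPM in inflamed batches 2 and 3, and 4252 and 5457 CPM in naive batches 2 and 3. Both inflamed sums were below both naive sums. The log2 fold change was -0.40 ± 0.24 (SE, n = 2 sums per condition; 95% interval -1.09 to 0.30), with an adjusted p of 0.733 by edgeR's quasi-likelihood test. Every one of the 268 cells had at least 5 reads of it. Its level per cell ran over a lowest, median and highest CPM of 103.1, 3047 and 11489 in inflamed batch 2 and 82.2, 2921 and 17540 in inflamed batch 3. In naive cells it was 802, 4212 and 20986 in batch 2 and 50.02, 4382 and 24192 in batch 3. The medians were thus lower in inflamed cells in both batches, and single cells of the groups overlapped widely.

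Fkbp4 encodes FKBP52, a cochaperone with a peptidyl-prolyl isomerase fold that binds heat shock protein 90 and raises receptor activity. It lies on chromosome 6 (128429735 to 128438677, minus strand). The sums were 47.98 and 108.3 CPM in inflamed batches 2 and 3, and 198.4 and 109.7 CPM in naive batches 2 and 3. In batch 2 the inflamed sum was the lower by 4.13-fold, and in batch 3 the sums stood within 1.01-fold of each other. For Fkbp4 the fitted log2 fold change was -1.03 ± 0.70 (SE, n = 2 sums per condition; 95% interval -3.05 to 0.99), with an adjusted p of 0.771 by edgeR's quasi-likelihood test.

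The share of cells with a read of Fkbp4 was 46.3% (exact Clopper-Pearson 95% interval 35.03 to 57.8) in inflamed batch 2 and 63.2% (51.3 to 73.9) in inflamed batch 3. In naive cells it was 84.9% (72.4 to 93.3) in batch 2 and 49.2% (35.9 to 62.5) in batch 3. The share was thus lower in inflamed cells in batch 2 and higher in batch 3. It stayed so in cells thinned to 500000 counts, at 41.4% and 62.5% of inflamed cells and 78.3% and 38.2% of naive cells. Thinning evens out counts but not detected genes, whose median was lowest in naive batch 3 (3432). Fkbp4 CPM and detected genes per cell had a Spearman rho of 0.426 and 0.430 in inflamed batches 2 and 3. In naive batches 2 and 3 the rho was 0.317 and 0.176. The part of detected genes in the shares was not tested. The median cell had 0 and 7.72 CPM in inflamed batches 2 and 3, and 30.9 and 0 CPM in naive batches 2 and 3. A single cell of 3111 CPM gave 39.1% of the reads in naive batch 3, and without the cell with most reads in each group the log2 fold change was -0.95. In batch 3 the 2 sums were thus alike, while the larger share of cells with reads was on the inflamed side and the single highest cell on the naive side.

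**Figure D2:**
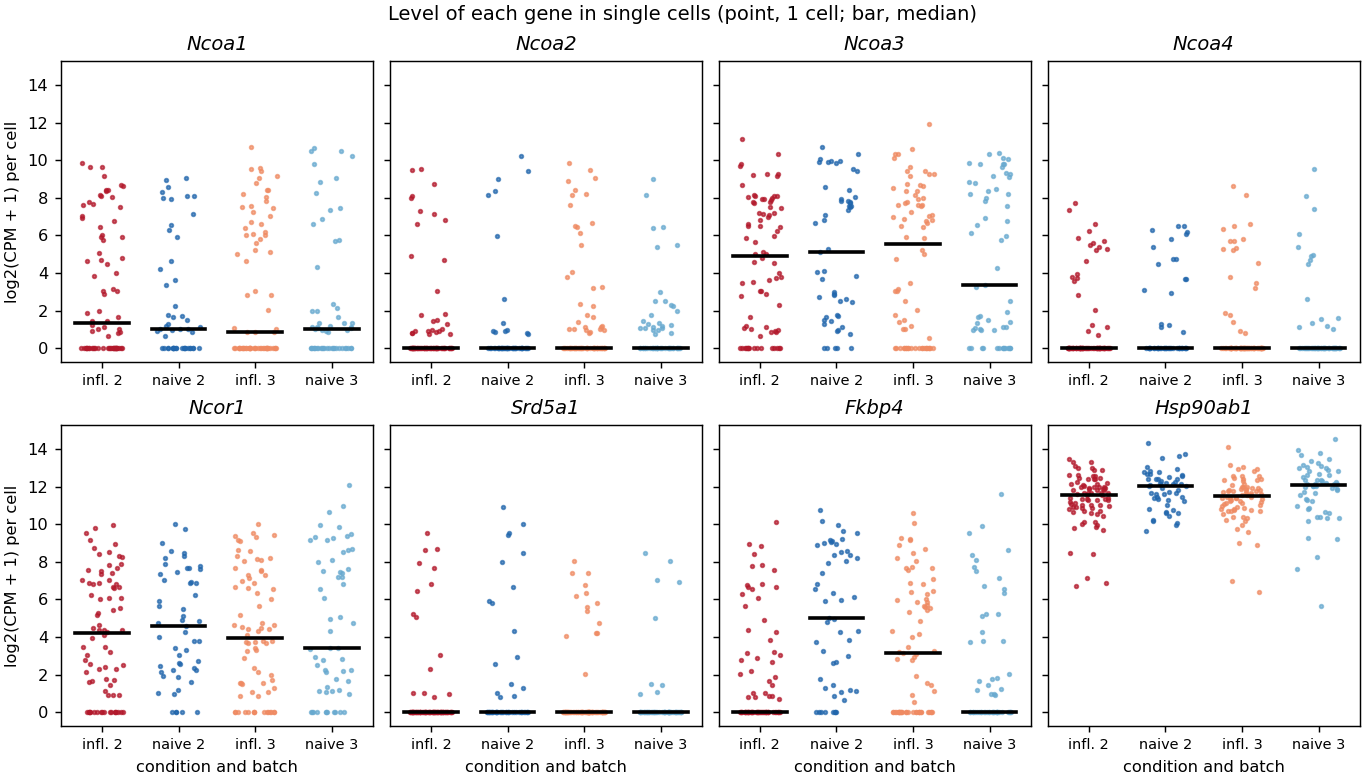
Level of each gene in single cells as log2(CPM + 1), with 1 point per cell and a bar at the median (inflamed left of naive within batches 2 and 3). Hsp90ab1 is read in every cell, whereas the medians of Ncoa2, Ncoa4 and Srd5a1 lie at 0 in each group and their sums rest on the cells far above it.

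The wider set of receptor chaperones and cochaperones had 20 genes, of which Hsp90ab1 and Fkbp4 are 2. In inflamed cells 13 of them were lower in both batches (28.3% of all genes), 0 were higher in both (30.9%) and 7 went opposite ways (40.8%), and with upper-quartile scaling 11 were lower in both. Their median log2 fold change was -0.52, against 0.10 over all genes tested. None passed after adjustment by edgeR, DESeq2 called 5 lower (4.11% of all genes), and 4 had an unadjusted p under 0.05 and lower values (3.23%).

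The 4 at an unadjusted p under 0.05 were the stress-inducible form of heat shock protein 90, Hsp90aa1, and the heat shock genes Hspa8, Hsph1 and Dnajb1. Hsp90aa1 was at 158.3 and 148.9 CPM in inflamed batches 2 and 3, against 549 and 785 CPM in naive batches 2 and 3 (a log2 difference of -2.10 ± 0.34, SE, n = 2 sums per condition). Its groups did not overlap, with both inflamed sums far below both naive sums (both lay below in 21.3% of all genes). Dnajb1, a DNAJ cochaperone, was at 456 and 864 CPM in the inflamed sums and 2646 and 4496 CPM in the naive sums. Hspa8, the constitutive heat shock protein 70, was at 355 and 410 CPM in the inflamed sums and 813 and 1425 CPM in the naive sums. Hsph1, a nucleotide exchange factor of heat shock protein 70, was at 194 and 163.9 CPM in the inflamed sums and 633 and 1204 CPM in the naive sums. All 4 had an adjusted p of 0.568 by edgeR's quasi-likelihood test and were among the 5 that DESeq2 called.

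Fkbp5, the paralog of Fkbp4 that also binds heat shock protein 90 and is itself a known target of androgen and glucocorticoid receptors, was the fifth. It was at 13.4 and 81.4 CPM in inflamed batches 2 and 3, against 233 and 111.5 CPM in naive batches 2 and 3. It was 17.4-fold lower in inflamed cells in batch 2 and 1.37-fold lower in batch 3. Its adjusted p was 0.687 by edgeR's quasi-likelihood test and 0.0375 by DESeq2.

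**Figure D3:**
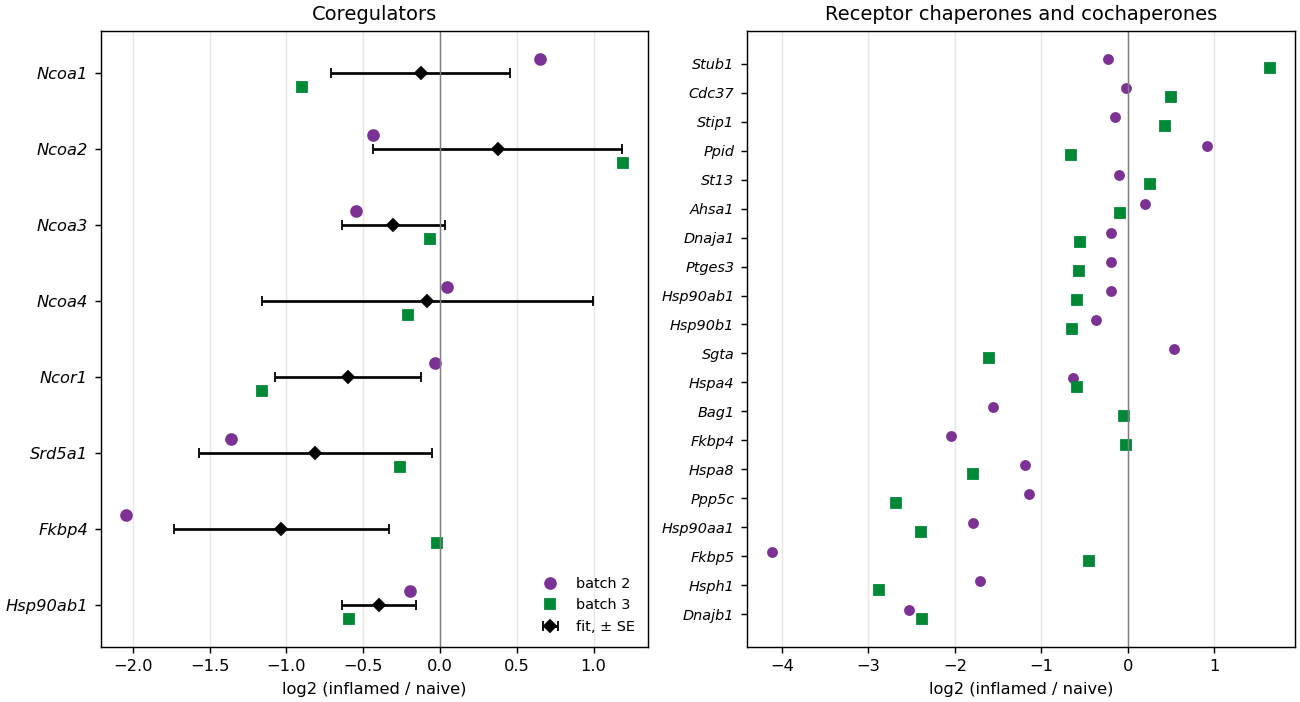
Log2 ratio of inflamed over naive sums within batch 2 (circles) and batch 3 (squares), for the 8 genes with the fitted value and its SE (diamonds and bars), and for the 20 receptor chaperones and cochaperones. The fitted values of the 8 genes lie between -1.03 and 0.38, and 13 of the 20 chaperones have both points below 0.

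Ncoa1, Ncoa2 and Ncoa3 form the p160 family of steroid receptor coactivators, which bind the liganded receptor and bring in histone acetyltransferases. Ncoa1 (SRC-1; chromosome 12, 4247362 to 4477182, minus strand) was at 105.6 and 99.4 CPM in inflamed batches 2 and 3, and at 67.4 and 185.2 CPM in naive batches 2 and 3. The inflamed sums lay between the naive ones, higher in batch 2 by 1.57-fold and lower in batch 3 by 1.86-fold. The log2 fold change was -0.12 ± 0.58 (SE, n = 2 sums per condition; 95% interval -1.81 to 1.56), with an adjusted p of 1 by edgeR's quasi-likelihood test.

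The naive batch 3 sum of Ncoa1 was carried by few cells. Its 5 highest cells gave 81.5% of the reads, against 53.96% and 42.3% in inflamed batches 2 and 3. Reads were found in 60% and 51.3% of inflamed cells of batches 2 and 3 and in 58.5% and 57.6% of naive cells. With at least 5 reads required, the shares were 40% and 42.1% of inflamed cells and 32.1% and 25.4% of naive cells. By this stricter count, and by the mean of log2(CPM + 1) over cells (3.07 and 3.09 in inflamed cells, 2.41 and 2.50 in naive cells), Ncoa1 was higher in inflamed cells in both batches, while the sums put it lower in batch 3. The intervals of the stricter shares overlapped between the conditions in each batch.

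Ncoa2 (SRC-2, also called GRIP1; chromosome 1, 13139105 to 13374083, minus strand) was at 36.6 and 55.8 CPM in inflamed batches 2 and 3, and at 49.6 and 24.4 CPM in naive batches 2 and 3. It was lower in inflamed cells in batch 2 and higher by 2.29-fold in batch 3. Ncoa2 had a fitted log2 fold difference of 0.38 ± 0.81 (SE, n = 2 sums per condition; 95% interval -1.96 to 2.71), with an adjusted p of 0.974 by edgeR's quasi-likelihood test. Reads were found in 33.8% and 42.1% of inflamed cells and in 26.4% and 44.1% of naive cells of batches 2 and 3. In naive batch 3 a single cell gave 52.8% of the reads, and 2 of 59 cells there reached 100 CPM, against 9 of 76 inflamed cells. Without the cell with most reads in each group the log2 fold change was 0.82.

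Ncoa3 (SRC-3, also called AIB1; chromosome 2, 165992636 to 166073242, plus strand) is a member of the family that is often amplified in breast cancer. It was at 184.7 and 274.2 CPM in inflamed batches 2 and 3, and at 269.4 and 286.4 CPM in naive batches 2 and 3. The second inflamed sum lay among the naive ones, so the groups overlapped. The log2 fold change was -0.30 ± 0.34 (SE, n = 2 sums per condition; 95% interval -1.28 to 0.67), with an adjusted p of 0.902 by edgeR's quasi-likelihood test. Reads were found in 80% (69.6 to 88.1) and 71.1% (59.5 to 80.9) of inflamed cells, and in 90.6% (79.3 to 96.9) and 76.3% (63.4 to 86.4) of naive cells of batches 2 and 3. The shares were lower in inflamed cells in both batches, but with at least 5 reads they were 61.3% and 60.5% of inflamed cells and 60.4% and 50.8% of naive cells.

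The 3 p160 genes were seldom all read in a cell. Reads of all 3 were found in 16 of 80 and 11 of 76 inflamed cells of batches 2 and 3, and in 8 of 53 and 15 of 59 naive cells. No p160 read was found in 10% and 9.21% of inflamed cells and in 5.66% and 8.47% of naive cells.

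The list of 30 receptor coactivators, which includes Ncoa4, was divided between the directions. In inflamed cells 8 genes were higher in both batches (30.9% of all genes), 8 lower in both (28.3%) and 14 went opposite ways (40.8%), which is near the shares over all genes, and the median log2 fold change was -0.06. None passed after adjustment by edgeR or DESeq2. At an unadjusted p under 0.05, 1 was higher (5.04% of all genes) and 1 lower (3.23%). The lower one was Smarca2, an ATPase of the SWI/SNF chromatin remodeller, at 120 and 181.8 CPM in inflamed batches 2 and 3 and 319 and 387 CPM in naive batches 2 and 3. The higher one, named after its values were seen, was Med1, a Mediator subunit that binds nuclear receptors, at 631 and 643 CPM in the inflamed sums and 300.2 and 355 CPM in the naive sums.

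Ncoa4 (ARA70) was first described as a coactivator of the receptor and is best known as the cargo receptor that carries ferritin to autophagy. It was at 13.6 and 17.5 CPM in inflamed batches 2 and 3, and at 13.2 and 20.2 CPM in naive batches 2 and 3. The groups overlapped. The log2 fold change was -0.08 ± 1.08 (SE, n = 2 sums per condition; 95% interval -3.19 to 3.02), with an adjusted p of 1 by edgeR's quasi-likelihood test.

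More reads were counted to the pseudogene Gm6768 than to Ncoa4 in every group. Gm6768 had 1691 and 2256 reads in inflamed batches 2 and 3, and 1407 and 1183 in naive batches 2 and 3. Ncoa4 itself had 1073 and 1327 reads in the inflamed sums, and 746 and 958 in the naive sums. Over cells the 2 rows had a Spearman rho between 0.531 and 0.882 within the groups, which share library and depth. Given the windows the 2 sequences share, reads of one cannot be told from reads of the other over most of the coding sequence, and the sources used here do not say how the authors counted reads with more than 1 place in the genome. Added together, the 2 rows had reads in 52.5% and 32.9% of inflamed cells and in 50.9% and 40.7% of naive cells, and a log2 fold change of -0.03. The share with reads of Ncoa4 alone was 27.5% and 26.3% of inflamed cells and 33.96% and 27.1% of naive cells.

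**Figure D4:**
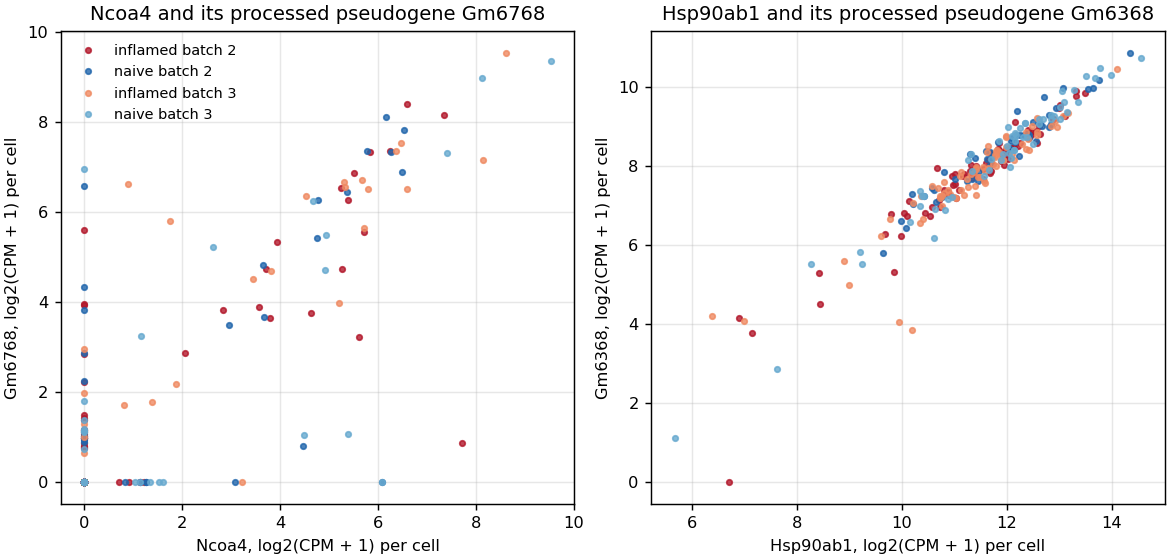
Reads of Ncoa4 against its processed pseudogene Gm6768, and of Hsp90ab1 against Gm6368, as log2(CPM + 1) in each cell (1 point per cell, coloured by condition and batch). Gm6768 lies at or above Ncoa4 in many cells, while Gm6368 follows Hsp90ab1 at a near-constant distance below it.

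Ncor1 (chromosome 11, 62316426 to 62458541, minus strand) encodes the nuclear receptor corepressor that recruits histone deacetylase 3. It was at 113.4 and 111.6 CPM in inflamed batches 2 and 3, and at 116.1 and 249.6 CPM in naive batches 2 and 3. Both inflamed sums were below both naive sums, in batch 2 by only 1.02-fold and in batch 3 by 2.24-fold. In the fit, Ncor1 differed by a log2 value of -0.60 ± 0.47 (SE, n = 2 sums per condition; 95% interval -1.96 to 0.77), with an adjusted p of 0.817 by edgeR's quasi-likelihood test.

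The difference lay in the naive batch 3 sum, without which the log2 fold change was 0.0028. A cell at 4349 CPM, the highest of any group, was in naive batch 3. The cell with most reads gave 16.9% of the reads there, against 22.9% in naive batch 2. Without the cell with most reads in each group the log2 fold change was -0.46. Reads of Ncor1 were found in 77.5% (66.8 to 86.1) and 80.3% (69.5 to 88.5) of inflamed cells, and in 90.6% (79.3 to 96.9) and 81.4% (69.1 to 90.3) of naive cells of batches 2 and 3. The shares were lower in inflamed cells in both batches and their intervals overlapped. Over Ncoa3, Ncoa4 and Ncor1 the share was lower in inflamed cells in both batches, 3 of 8 genes where 28.1% of all genes tested were, and no gene of the 8 kept this with at least 5 reads.

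**Figure D5:**
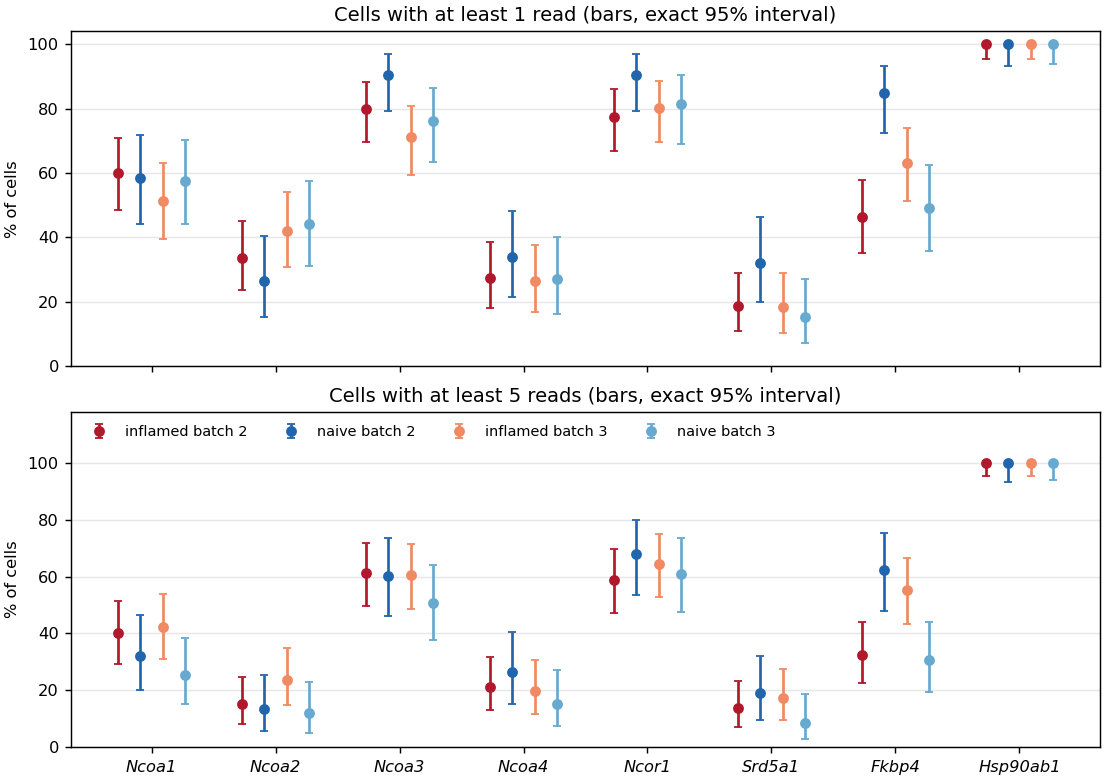
Share of cells with at least 1 read (top) and at least 5 reads (bottom) of each gene (inflamed left of naive within each batch). The exact 95% intervals cover the sampling of cells only. Intervals of the conditions overlap within both batches for each gene but Fkbp4, which stands at 46.3% in inflamed and 84.9% in naive cells of batch 2.

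Of 22 receptor corepressors 20 were tested, and 4 were higher in both batches (30.9% of all genes), 4 lower in both (28.3%) and 12 opposite (40.8%). Their median log2 fold change was 0.05 and none passed after adjustment by edgeR. Sin3a, the scaffold of a histone deacetylase complex, was at 17.3 and 18.99 CPM in inflamed batches 2 and 3 and 61.8 and 125.5 CPM in naive batches 2 and 3, and was the 1 gene of the list with an unadjusted p under 0.05. DESeq2 called Sin3a lower (4.11% of all genes) and 1 gene higher (7.13%). That gene, named after its values were seen, was Hdac7, a class IIa histone deacetylase, at 22.4 and 16.5 CPM in the inflamed sums and 0.58 and 1.16 CPM in the naive sums. Its adjusted p was 0.568 by edgeR's quasi-likelihood test and 0.01004 by DESeq2, against 0.0163 by DESeq2 for Sin3a.

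Srd5a1 (chromosome 13, 69573449 to 69611442, minus strand) encodes the type 1 steroid 5-alpha reductase, which makes dihydrotestosterone. It was at 34.8 and 13.1 CPM in inflamed batches 2 and 3, and at 89.5 and 15.7 CPM in naive batches 2 and 3. It was lower in inflamed cells in both batches, by 2.57-fold and 1.20-fold, yet both batch 3 sums lay below both batch 2 sums. Without the naive batch 2 sum the log2 fold change was 0.61, in the opposite direction, and without the inflamed batch 2 sum it was -1.99. The fitted log2 value of Srd5a1 was -0.81 ± 0.76 (SE, n = 2 sums per condition; 95% interval -3.00 to 1.38), with an adjusted p of 0.861 by edgeR's quasi-likelihood test.

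Few cells carried Srd5a1. Reads were found in 15 of 80 and 14 of 76 inflamed cells (18.8%, 10.9 to 29.03, and 18.4%, 10.45 to 28.97), and in 17 of 53 and 9 of 59 naive cells (32.1%, 19.9 to 46.3, and 15.3%, 7.22 to 26.99) of batches 2 and 3. In naive batch 2 a single cell at 1936 CPM gave 32.3% of the reads, and in naive batch 3 the 5 highest cells gave 99.3%. Adding the reads of the overlapping gene Gm17108, at 1.99 and 4.56 CPM in the inflamed sums and 0.0384 and 0.20 CPM in the naive sums, gave a log2 fold change of -0.56. The other 5-alpha reductase, Srd5a2, was at 0.81 and 0 CPM in the inflamed sums and 0 and 2.70 CPM in the naive sums.

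Of 23 genes of androgen metabolism 22 had rows and 11 were tested, and 2 were higher in both batches (30.9% of all genes), 5 lower in both (28.3%) and 4 opposite (40.8%). The median log2 fold change was -0.81 in the fit, which is the value of Srd5a1 itself, against 0.10 over all genes tested. It was -1.56 within batch 2 and -0.16 within batch 3, against 0.047 and 0.059 over all genes tested. Some of the 11 genes, such as Srd5a2, had 0 counts in a sum. None passed after adjustment by edgeR, and 2 were lower at an unadjusted p under 0.05 (3.23% of all genes) and by DESeq2 (4.11%). Hsd17b7, a 17-beta hydroxysteroid dehydrogenase that also acts in cholesterol synthesis, was at 8.88 and 6.59 CPM in inflamed batches 2 and 3 and 102.9 and 107.8 CPM in naive batches 2 and 3 (a log2 difference of -3.78 ± 0.64, SE, n = 2 sums per condition). Hsd17b4, a peroxisomal enzyme of the same superfamily that also breaks down fatty acids, was at 16.05 and 6.33 CPM in the inflamed sums and 101.9 and 34.4 CPM in the naive sums. Both inflamed sums of each of these genes lay below both its naive sums, as for 21.3% of all genes. The adjusted p was 0.568 for each by edgeR's quasi-likelihood test.

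Levels between genes were compared per kilobase of the main transcript, as the mean over the 4 sums. The main transcript was the one with the longest coding sequence, and other transcripts would give other values. Hsp90ab1 stood first at 1689 ± 336 CPM per kilobase (SD, n = 4 sums), followed by Fkbp4 at 52.4 ± 27.9, Ncoa3 at 33.7 ± 6.18, Ncoa1 at 24.1 ± 10.52, Ncor1 at 16.3 ± 7.52, Srd5a1 at 14.5 ± 13.4, Ncoa2 at 8.495 ± 2.85 and Ncoa4 at 3.96 ± 0.815. The ranges of neighbours overlapped from Fkbp4 down to Ncoa2, so their order is not fixed beyond the spread of the sums. The range of Hsp90ab1 lay above all others. That of Ncoa4 (3.25 to 4.96) ended just below that of Ncoa2 (4.98 to 11.4), with the shared reads of Ncoa4 left aside. With the reads of Gm6768 added, Ncoa4 had 34.9 to 45.7 CPM per total count over its 4.065 kilobases. Its place below Ncoa2 thus depends on leaving those reads aside.

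Relations between the 8 genes within a group of cells were weak. The median cell had reads of 4 and 5 of the 8 genes in inflamed batches 2 and 3 and of 5 in both naive batches, and 1 cell, in naive batch 3, had all 8. Over the cells of a group, 1 pair of genes, Ncoa3 and Fkbp4, had a median Spearman rho of at least 0.2 (0.136 to 0.293 in the groups), and in thinned cells no pair did. Among the genes read in 50% or more of the cells in all 4 groups (1990, with 4 of the 8 among them), those most like Hsp90ab1 by the lowest rho over the 4 groups were its pseudogenes Gm6368 (0.957 to 0.971), Gm13498 (0.722 to 0.896) and Gm14107 (0.559 to 0.754). The reads of Gm6368 came to 8.36% and 8.04% of those of Hsp90ab1 in inflamed batches 2 and 3, and 8.81% and 8.66% in naive batches 2 and 3. Whether they stem from Hsp90ab1 was not tested. For Ncoa1 the most alike gene was Lmo7 (0.161 to 0.249), for Ncoa3 Gm12940 (0.307 to 0.437) and for Ncor1 Brd8 (0.195 to 0.266). These last correlations were weak, and cells of a group share library preparation and depth.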

How the data were processed

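For each batch the authors deposited a table of raw, whole-number read counts, with genes in rows and cells in columns. TopHat2, HTSeq, R 3.4.1, Seurat 1.4 and GRCm38.p6 are named per the submitters' processing notes, without roles. The members and gene lists were chosen with earlier results of these data known. The receptor's own gene and 1 other gene the naming rule covers are not reported here. Cells with at least 1000 detected genes and 50000 counts were kept (268, with 14 left out), and their counts were summed per condition and batch. Cells are not replicates and no animal is named, so p-values measure the spread between 4 sums, which may be technical.

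The sums were tested with edgeR 4.0.16 (filterByExpr, TMM scaling, quasi-likelihood F test on condition with batch as a term). This left 1 residual degree of freedom, with Benjamini-Hochberg adjustment over 14713 genes. The fit was tested on simulated data of a fixed spread without a batch effect, which does not give its power in these sums. DESeq2 1.42.0 served as an alternative. Intervals of folds use the t distribution with 3.66 degrees of freedom. CPM of sums are TMM-scaled, except that those of cell type markers and of Gm17108, like CPM of cells, are per total count. Shares have exact Clopper-Pearson 95% intervals. A Poisson interval, which takes reads as independent, had a half-width of at most 7.24% of a member's summed count. Reads without molecular identifiers are not independent molecules, so the counting error of a sum can be larger than this. The intervals of shares cover the sampling of cells only. In bulk sums, fewer cells with a transcript and less RNA per cell cannot be told apart, so shares are given beside levels. Copies were found with blastn 2.17.0 on GENCODE transcripts (at least 90% identity over 200 bases). Besides the 8 members, named list genes had at least 50 CPM in a sum and a fold of at least 2 in the same direction in both batches, or were Fkbp5, Hsp90aa1 or Srd5a2. Med1 and Hdac7 fall outside this rule.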

Additional observations from a re-analysis of the deposited data

Results flagged for a closer look

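Of the 8 genes, 3 went opposite ways in the batches, and these differences were not tested because each batch holds 1 sum per condition. For Ncoa1 the log2 ratio of inflamed over naive sums in batch 3 was 1.54 below that in batch 2 (a difference of -1.54). For Ncoa2 it was 1.63 above it, and for Ncoa4 the difference was -0.25. For Ncoa2 the naive batch 3 sum rests on 1 cell for 52.8% of its reads, and for Ncoa1 the largest cell there gave 27.6%.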

How the results depend on the processing

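No alternative called any of the 8 genes, and the lowest adjusted p over the alternatives was 0.365, for Ncor1. DESeq2 called 927 genes higher (7.13% of 13001 genes) and 534 lower (4.11%), where edgeR called 0 and 0. Of the pathway lists DESeq2 called 9 genes, where edgeR called 0. They were 5 lower of 20 chaperones, 0 of 30 coactivators, 1 higher and 1 lower of 20 corepressors, and 2 lower of 11 metabolism genes. The labels' batch is what pairs the sums, and the fit without this block (no replicate block) gave -0.41 for Hsp90ab1, -0.98 for Fkbp4 and -1.13 for Srd5a1 and also called 0 genes. The batch deviations of the inflamed and naive sums had a correlation of -0.011 across genes.

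Fits that leave out 1 sum drop the batch term and take the lone sum to vary like the others. Over them the log2 fold change ran from -0.85 to 0.65 for Ncoa1, -0.056 to 0.92 for Ncoa2, -0.38 to 0.28 for Ncoa4, -1.15 to 0.0028 for Ncor1 and -1.99 to 0.61 for Srd5a1, and from -0.57 to -0.0070 for Ncoa3, -1.66 to -0.49 for Fkbp4 and -0.57 to -0.17 for Hsp90ab1. Without the cell with most reads of the gene in each group, an alternative chosen after seeing the data, Ncoa1 stood at 0.018. In batch 3, 7 genes were lower by the sums and 2 (Hsp90ab1 and Ncor1) by the mean of log2(CPM + 1) over cells. The share of cells was lower in both batches for 3 genes with at least 1 read, for 0 with at least 5 reads and for 1 in thinned cells, and 1 pair of genes reached a median rho of 0.2 in full and 0 in thinned cells. The causes were not tested.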
